A study of Solanum lycopersicum with 120 samples.

Results

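The epicotyl is the piece of stem just above the cotyledons, and its transcripts were compared here between the eighth and the second hour after lights-on in white light. The members are 6 of the 72 wild-type (WT) libraries of a tomato time course, chosen by their labels alone: 3 epicotyl libraries taken 6 h after the start of the treatment period (zeitgeber time 8, ZT8) and 3 taken at 24 h (ZT2 of the next day). The treatment period began 2 h after lights-on, so the 3 h libraries fall at ZT5. Every plant was WT tomato of the M82 background, raised for 12 days at 24 °C in long days of about 200 µmol of white light. The plants of these 6 libraries then stayed in white light (24WL), while those of the matching 24FR libraries received white light with added far-red, which lowers the ratio of red to far-red. Each library held epicotyls pooled from 4 seedlings. The ZT2 plants were also 18 h older than the ZT8 plants, so time of day and age cannot be told apart. ZT2 plants had in addition passed through a night since the ZT8 sampling.

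In plants, a circadian clock of interlocking morning-, day- and evening-expressed genes sets when in the day many other genes are transcribed. Light-harvesting and chlorophyll-synthesis genes typically have a daytime peak, and growth in young stems is gated to certain hours through PHYTOCHROME INTERACTING FACTORs (PIFs), auxin and gibberellin. The epicotyl is a growing stem with little leaf tissue, so it holds dividing and elongating cells, vascular tissue and green cortex.

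The 6 libraries held 23810832 to 30760763 reads assigned to genes, against 15905765 to 32898950 over the whole time course. A count of 3 was worth 0.0751 to 0.0954 CPM in them, CPM being a gene's count scaled by the size of its library, and levels below this are at the limit of detection. Each of the 6 libraries was closest to its own group over all tested genes (r = 0.990 to 0.995 with the mean of its own group, 0.972 to 0.981 with the nearest other group), and no pair of replicates agreed within sampling noise. SlPIF7b, expressed in leaf blades, had 0 counts in all 6 libraries and the leaf auxin-synthesis gene SlYUC9 at most 3. Summed over 17 light-harvesting and photosystem genes, the level was 2206 to 2399 CPM at ZT8 and 1041 to 1123 CPM at ZT2, against 11103 to 42915 CPM in the first-leaf libraries. The stem and meristem class of KNOTTED1-like homeobox genes, represented by 2 genes, summed to 75.8 to 83.7 CPM at ZT8 and 84.8 to 89.2 CPM at ZT2. In bulk tissue, fewer cells of a type and less RNA per cell cannot be told apart, and the part of tissue composition in the results was not tested.

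Of 17469 genes tested, 1404 (8.04%) differed between ZT8 and ZT2, with 609 higher (3.49%) and 795 lower (4.55%) at ZT8. A gene was called when its Benjamini-Hochberg adjusted p in edgeR's quasi-likelihood test was below 0.05 and its log2 fold change was beyond 1 in either direction. Without the fold requirement 7841 genes (44.9%) passed, 4208 higher and 3633 lower, so most differences that passed the test were small. The median log2 fold change over all tested genes was 0.03. Differences beyond a log2 fold change of 2 were found for 165 genes in the higher and 151 in the lower direction, and those beyond 4 for 26 and 12 genes. The ZT8 and ZT2 libraries did not overlap for 1383 of the 1404 called genes, against 59.6% of all tested genes. A name or description was at hand for 492 of the called genes (200 higher, 292 lower). Described genes were called in 16.2% of cases. The descriptions come mainly from genes that responded to far-red in these libraries and from the first chromosomes, so the gene lists below are parts of their pathways and their counts are to be read against both shares.

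**Figure D1:**
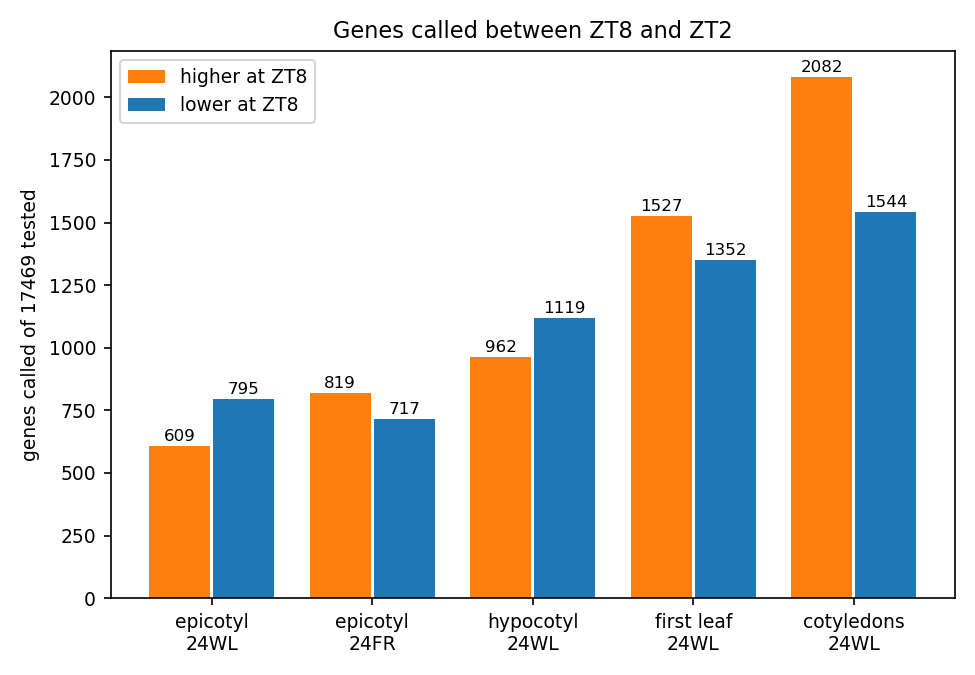
Genes called between ZT8 and ZT2 (y axis, number of the 17469 tested) in the epicotyl under 24WL and 24FR and in 3 other organs under 24WL, with orange bars for genes higher at ZT8 and blue bars for genes lower at ZT8. The epicotyl in 24WL had the fewest higher genes (609), the epicotyl in 24FR the fewest lower genes (717, against 795 in 24WL), and the cotyledons the most in both directions (2082 and 1544).

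Genes of the clock were among those with large differences. GIGANTEA (Solyc04g071990), an evening-phased clock protein that in Arabidopsis also promotes flowering, was at 65.6, 66.6 and 71.3 CPM at ZT8 and at 5.53, 5.45 and 6.44 CPM at ZT2. Each ZT8 library was far above every ZT2 library, and the log2 fold change was 3.54 ± 0.16 (SE, adjusted p = 2.4e-25). Adagio-like protein 1 (Solyc01g005300), whose listed Arabidopsis homolog is the blue-light receptor and F-box protein FKF1, was at 19.3, 29.9 and 40.3 CPM at ZT8 and at 5.12, 4.47 and 3.87 CPM at ZT2. Its ZT8 libraries were spread over a wide range without reaching the ZT2 libraries, with a log2 fold change of 2.73 ± 0.36 (adjusted p = 9.78e-09). EARLY FLOWERING 4 (Solyc06g051680), a part of the evening complex that represses transcription at night in Arabidopsis, was at 3.37, 4.76 and 4.94 CPM at ZT8 and at 1.97, 2.14 and 1.71 CPM at ZT2, a log2 fold change of 1.17 ± 0.32 (adjusted p = 0.00233). LNK2 (Solyc01g068560), a co-activator of morning clock factors in Arabidopsis, went the other way, at 53.6, 47.4 and 49.4 CPM at ZT8 against 112, 105 and 110 CPM at ZT2. Its difference was -1.12 ± 0.06 on the log2 scale (adjusted p = 2.7e-22). The remaining clock gene of the list, ELF4-LIKE 4 (Solyc07g041340), was at 12.4 to 15.3 CPM at ZT8 and 12 to 15.9 CPM at ZT2, so its groups overlapped (log2 fold change -0.06 ± 0.15, adjusted p = 0.77). Of the 5 listed clock genes, 3 were thus higher, 1 was lower and 1 was not called.

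PIFs are basic helix-loop-helix factors that phytochromes inactivate in red-rich light and that promote elongation in low red to far-red light. SlPIF1b (Solyc06g008030) was the only PIF gene called, at 40.5, 46.9 and 37.9 CPM at ZT8 and 3.15, 2.97 and 3.79 CPM at ZT2. The groups were well apart, with a log2 fold change of 3.66 ± 0.24 (adjusted p = 1.88e-18), a ratio of means of 12.6. SlPIF8a (Solyc01g090790) was at 94.6, 77 and 84.3 CPM at ZT8 and at 85.9, 78.9 and 90.7 CPM at ZT2. The groups overlapped, and the fitted difference was 0.00 ± 0.11 on the log2 scale (adjusted p = 0.993). SlPIF4 (Solyc07g043580) was at 73.6, 81.5 and 78.3 CPM at ZT8 and at 58, 62.8 and 59.3 CPM at ZT2, apart but by a log2 fold change of only 0.37 ± 0.11 (adjusted p = 0.006), short of the fold required. For SlPIF1a the log2 fold change was -0.54 (adjusted p = 0.000653), for SlPIF3 -0.39 (adjusted p = 0.00768) and for SlPIF7a 0.84 (adjusted p = 0.0101). None of these reached the fold required, but SlPIF7a passed it when the third ZT8 library (1.01) or the third ZT2 library (1.08) was left out. SlPIF7b had no count and SlPIF8b 1 count in the 6 libraries together.

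CONSTANS-like and B-box proteins are zinc-finger regulators of flowering and light responses, many of them transcribed at set times of day. CONSTANS 1 (Solyc02g089540) was at 5.96, 3.15 and 3.71 CPM at ZT8 and at 86.8, 77.8 and 83.9 CPM at ZT2. This was among the largest differences in the lower direction, at -4.28 ± 0.26 on the log2 scale (adjusted p = 5.88e-20). CONSTANS-LIKE 9 (Solyc07g045180) was also lower at ZT8, at 4.17 to 4.97 CPM against 21.2 to 22.5 CPM (log2 fold change -2.26 ± 0.16). CONSTANS-LIKE 7 (Solyc05g009310) was higher, at 1.71, 1.9 and 3.99 CPM against 0.223, 0.306 and 0.376 CPM (3.05 ± 0.47, adjusted p = 3.82e-07), and so was B-box zinc finger protein 22 (Solyc12g089240), at 1.03 to 1.63 CPM against 0.123 to 0.382 CPM (2.56 ± 0.45). Of the 9 members tested, 3 were higher, 3 lower and 3 not called, and their median log2 fold change of -0.03 hides these opposite differences.

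**Figure D2:**
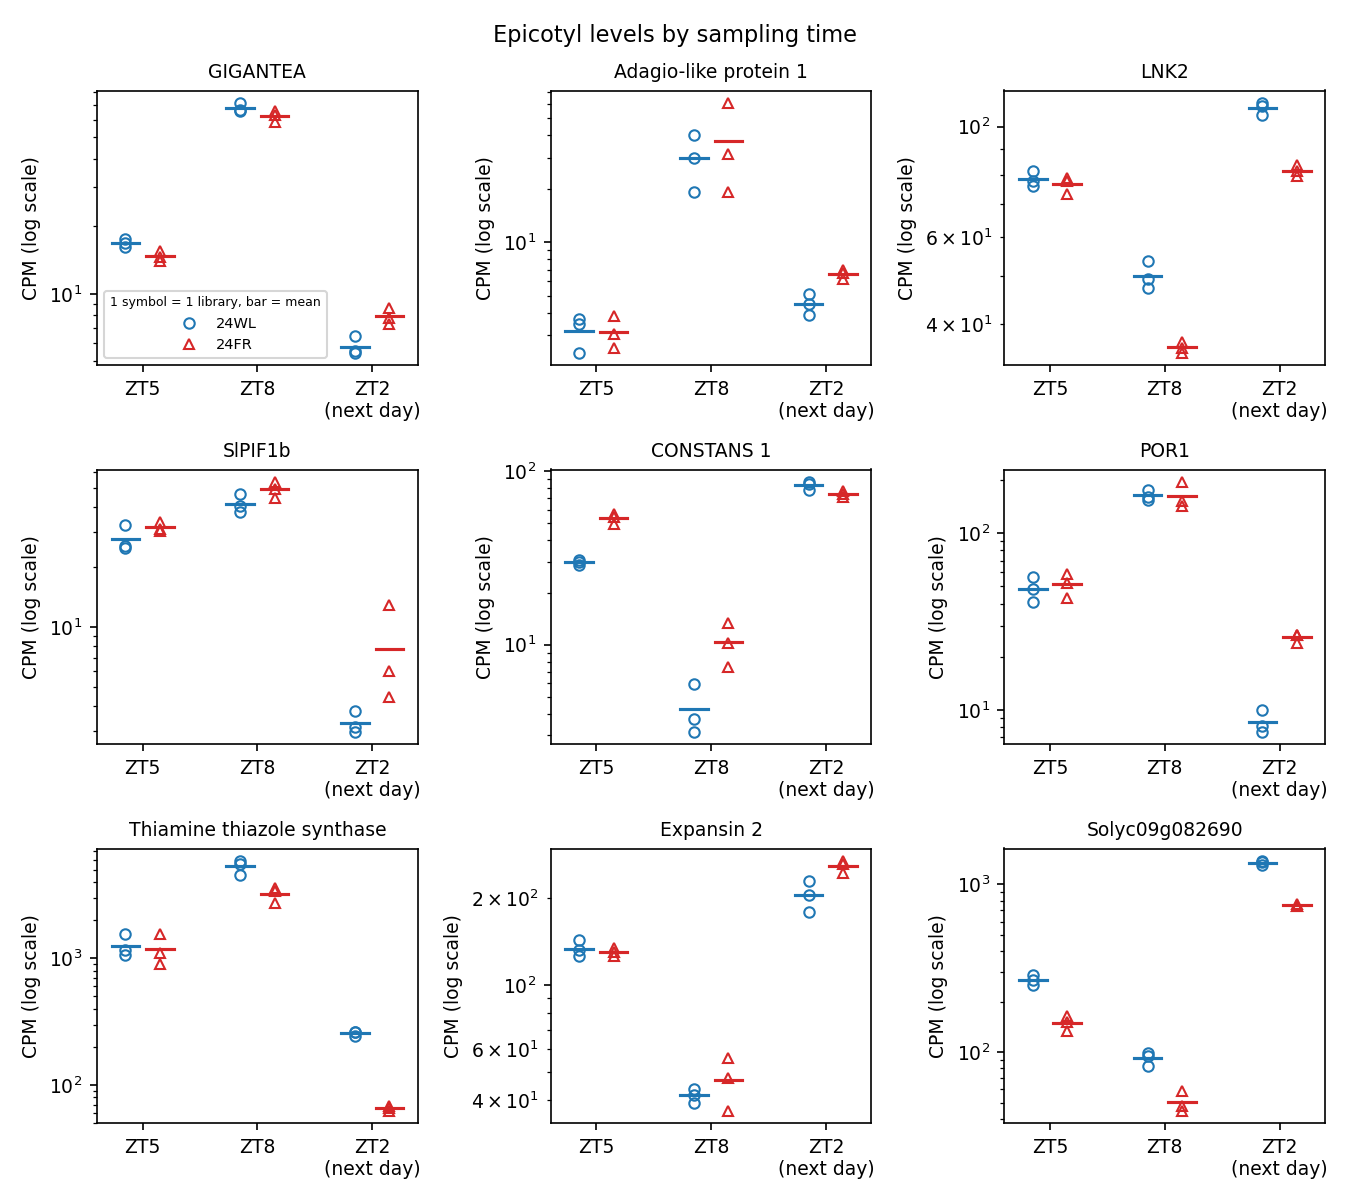
Levels of 9 named genes in the epicotyl (y axis, CPM on a log scale) at ZT5, ZT8 and ZT2 of the next day, with blue circles for 24WL libraries, red triangles for 24FR libraries and bars for means of 3 libraries. GIGANTEA, Adagio-like protein 1, SlPIF1b, POR1 and thiamine thiazole synthase were highest at ZT8 in both light treatments, and CONSTANS 1, LNK2, expansin 2 and Solyc09g082690 were lowest at that time.

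The light-harvesting genes, which encode the proteins that hold antenna chlorophyll, were largely higher at ZT8. Of 17 genes tested, 9 were higher and 1 was lower, with a median log2 fold change of 1.29 against 0.03 over all genes. The chlorophyll a-b binding protein gene Solyc02g070950 was at 74.9, 72.3 and 62.2 CPM at ZT8 and at 6.46, 5.79 and 6.56 CPM at ZT2, a log2 fold change of 3.48 ± 0.16 (adjusted p = 1.44e-24). It stands in a cluster of genes with neighbouring identifiers and the same description on chromosome 2. Reads that fit several of these genes may be missing from the counts, and how alike their sequences are was not checked. All 6 members of that cluster were higher, and they summed to a mean of 744 CPM at ZT8 and 249 CPM at ZT2. Solyc07g063600, which encodes another chlorophyll a-b binding protein outside the cluster, was at 596, 581 and 536 CPM against 119, 140 and 141 CPM (2.10 ± 0.11). A photosystem I subunit N gene (Solyc05g150152) was at 3.79 to 4.61 CPM at ZT8 and 0.46 to 0.578 CPM at ZT2 (2.92 ± 0.25). The exception was Solyc12g056620, a chlorophyll a/b binding domain protein, at 2.71, 3.3 and 3.3 CPM at ZT8 and 7.63, 8.36 and 7.83 CPM at ZT2 (-1.35 ± 0.16, adjusted p = 5.42e-10).

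Among 4 listed genes of pigment synthesis, 1 was higher, 2 were lower and 1 was not called. POR1 (Solyc12g013710), the light-dependent enzyme that reduces protochlorophyllide on the way to chlorophyll, was at 159, 176 and 155 CPM at ZT8 and at 8.11, 10 and 7.54 CPM at ZT2. The ratio of means was 19.1, and the log2 fold change was 4.25 ± 0.23 (adjusted p = 4.99e-22). Phytoene synthase 1 (Solyc03g031860), which catalyses the committed step of carotenoid synthesis, was lower instead, at 44.4, 35.1 and 39.5 CPM against 247, 221 and 221 CPM (-2.53 ± 0.14, adjusted p = 3.09e-22). A lycopene cyclase gene (Solyc01g102950) was at 52.4 to 65 CPM at ZT8 and 130 to 142 CPM at ZT2 (-1.27 ± 0.11).

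Among the described genes called higher, the most reads fell on Solyc07g064160, which encodes thiamine thiazole synthase, the plastid enzyme that makes the thiazole ring of vitamin B1. Its level was 4517, 5869 and 5573 CPM at ZT8 and 263, 261 and 242 CPM at ZT2, so ZT8 was 20.8 times higher in the mean (log2 fold change 4.38 ± 0.19, adjusted p = 4.68e-26). A gene described as an auxin-repressed protein (Solyc02g077880) was at 316, 273 and 337 CPM against 8.05, 12.2 and 10.6 CPM (4.91 ± 0.27, adjusted p = 9.95e-22). A receptor-kinase gene with leucine-rich repeats (Solyc02g071820) was at 58.8, 66 and 76.8 CPM against 1.14, 0.95 and 0.896 CPM (6.07 ± 0.52, adjusted p = 1.61e-14). A 2-oxoglutarate-dependent oxygenase gene (Solyc08g006770) was at 29.3 to 36.6 CPM against 0.578 to 0.858 CPM (5.51 ± 0.24). Within each of these genes the 3 ZT8 libraries differed from each other by far less than from the ZT2 libraries. Nudix hydrolase 8 (Solyc08g007240) was at 29, 30.9 and 50.3 CPM against 1.3, 2.6 and 1.85 CPM, a glycosyltransferase gene (Solyc12g057060) at 14.6 to 23.5 CPM against 1.13 to 1.18 CPM, and a light-regulated protein gene (Solyc09g092110) at 14.2 to 25.4 CPM against 1.16 to 1.3 CPM. A gene described as a viroid RNA-binding protein (Solyc12g006470) had a smaller difference at a high level, 397, 559 and 385 CPM against 186, 198 and 146 CPM (1.34 ± 0.21, adjusted p = 4.87e-07).

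In the lower direction, the largest difference of a named gene was that of the phosphate starvation-inducible gene TPSI1 (Solyc03g098010). It was at 0.428, 0.4 and 0.361 CPM at ZT8 and at 37.5, 24.4 and 30 CPM at ZT2, a log2 fold change of -6.26 ± 0.47 (adjusted p = 2.06e-16). Solyc09g082690, described as superoxide dismutase although its listed Arabidopsis homolog is the early light-induced, chlorophyll-binding protein gene ELIP1, was at 99.1, 94.6 and 82.6 CPM against 1379, 1357 and 1307 CPM (-3.87 ± 0.17, adjusted p = 1.34e-25), a ratio of 14.6 in favour of ZT2. FATTY ACID DESATURASE 4 (Solyc07g064410), which in Arabidopsis desaturates a plastid lipid, was at 0.927 to 1.26 CPM against 26.2 to 36.1 CPM (-4.80 ± 0.29). A sulfate transporter gene (Solyc09g082550) was at 4, 5.43 and 4.2 CPM against 65.8, 57.5 and 58.1 CPM (-3.73 ± 0.29, adjusted p = 7.67e-16). The groups of these 4 genes did not overlap. A pectin lyase-like gene (Solyc04g008230) was at 15.7 to 21 CPM against 207 to 247 CPM (-3.64 ± 0.22), and a gene of the steroid 4-dehydrogenase type (Solyc11g006300) at 8.73 to 14.5 CPM against 125 to 141 CPM (-3.62 ± 0.20). A fructose-bisphosphate aldolase gene (Solyc01g110360) was at 91.4, 99.4 and 91.7 CPM against 506, 504 and 532 CPM (-2.45 ± 0.15). Phenylalanine ammonia-lyase opens the phenylpropanoid pathway, which leads to lignin and flavonoids, and its genes Solyc09g007910 and Solyc05g056170 were both lower, by -3.09 ± 0.27 and -1.62 ± 0.12. They were the only 2 of 12 flavonoid-list genes called.

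Genes of the auxin list were called in the lower direction only. The auxin-repressed protein gene Solyc02g077880, given above as higher, is not in this list. Auxin is the hormone that drives cell elongation, and small auxin up RNA (SAUR), Aux/IAA and GH3 genes are induced by it within minutes to hours. Of 42 listed genes 37 were tested, 18 were lower at ZT8, none was higher, 33 had a negative fitted difference, and the median log2 fold change was -0.89. By family, 12 of 16 SAUR genes, 3 of 12 Aux/IAA genes and 1 of 5 GH3 genes were lower. The other 2 lower genes, named here after their values were seen, were the auxin-synthesis gene YUC5 (Solyc09g064160) and an auxin efflux carrier gene (Solyc02g037550). SlSAUR19 (Solyc01g110630) was at 0.171, 0.1 and 0.103 CPM at ZT8 and at 0.509, 0.368 and 0.694 CPM at ZT2 (log2 fold change -2.05 ± 0.63, adjusted p = 0.00641). A SAUR20 gene (Solyc01g111000) was at 0.325 to 0.342 CPM against 0.986 to 2.05 CPM (-2.01 ± 0.45, adjusted p = 0.000215). These groups did not overlap, but the levels were low: the 16 SAUR genes summed to a mean of 20.7 CPM at ZT8 and 48.7 CPM at ZT2. Of the 16, 12 lie within a run of neighbouring, similar copies on chromosome 1, so their separate values are uncertain. Without the SAUR genes, 6 of the listed genes were lower, and on the log2(CPM + 1) scale, which shrinks low genes, the 18 became 9. The list was drawn from descriptions given mostly to far-red responders of these same libraries, so its direction is not independent evidence.

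**Figure D3:**
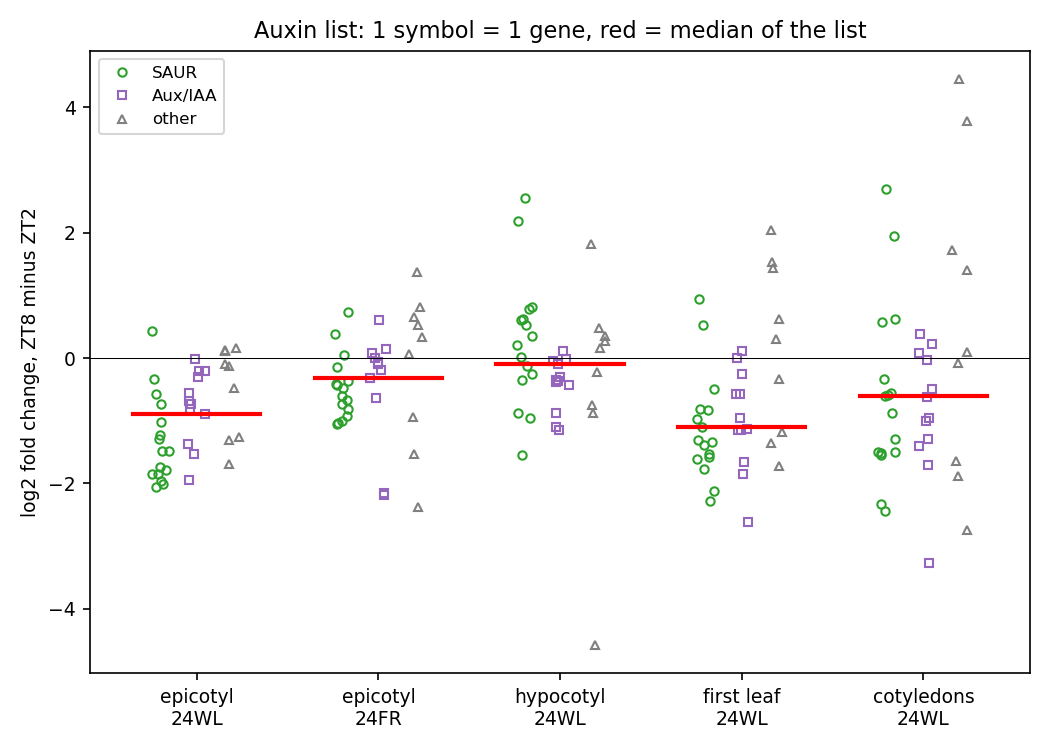
Log2 fold changes between ZT8 and ZT2 (y axis, ZT8 minus ZT2) of the 37 tested auxin-list genes in the epicotyl under 24WL and 24FR and in 3 other organs under 24WL, with 1 symbol per gene by family and a red bar at the median. The median was -0.89 in the epicotyl under 24WL, -0.32 under 24FR, -0.09 in the hypocotyl, -1.09 in the first leaf and -0.60 in the cotyledons.

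The auxin genes differed less in the hypocotyl, the stem segment below the cotyledons. There 4 were lower and 2 higher at ZT8, against 18 lower and 3 higher in the first leaf and 13 lower and 6 higher in the cotyledons. The 2 SAUR genes given above were near the limit of detection in the hypocotyl. SlSAUR19 was there at means of 0.0823 CPM at ZT8 and 0.0535 CPM at ZT2, and Solyc01g111000 at 0.132 and 0.399 CPM. Fold changes at such levels are uncertain. For 7 of the genes, all SAUR genes (against 11.8% of all tested genes with an interaction in either direction and 4.68% in this one), the epicotyl difference was below that of the hypocotyl in the test of the interaction, and for none was it above. Under 24FR, 6 were lower and 1 was higher in the epicotyl. The time-by-light interaction was called for 9 of the 37 genes, a share near the 23% of all tested genes, in each case with a higher value of ZT8 relative to ZT2 under 24FR (8.35% of all tested genes).

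In other growth-related lists, 17.6% of wall-loosening genes, 18.2% of wall synthesis and lignin genes and 15% of gibberellin genes were called. These shares were near the 16.2% of described genes and above the 8.04% of all tested genes. Expansins loosen cell walls during growth, and expansin 2 (Solyc06g049050) was at 41.9, 39.1 and 43.8 CPM at ZT8 and at 230, 179 and 205 CPM at ZT2. The ZT2 libraries were 4.92 times higher in the mean (log2 fold change -2.30 ± 0.30, adjusted p = 6.49e-09). EXPANSIN A11 (Solyc04g081870) was at 37.1, 56.8 and 45.6 CPM against 128, 102 and 100 CPM (-1.24 ± 0.22, adjusted p = 4.49e-06). With a low xyloglucan endotransglucosylase/hydrolase gene, these were the 3 lower genes among 17 wall-loosening genes, none of which was higher (median -0.47). Of 44 genes for wall synthesis and lignin, 4 were higher and 4 lower (median -0.07). Among them a cellulose synthase gene (Solyc08g082650) was higher, at 4.08, 5.06 and 6.26 CPM against 0.286, 0.49 and 0.578 CPM (3.48 ± 0.29, adjusted p = 7.61e-15), and an invertase/pectin methylesterase inhibitor gene (Solyc03g083770) at 28.5, 45.2 and 64.2 CPM against 10.9, 10.8 and 7.95 CPM (2.22 ± 0.29). A pectinesterase gene (Solyc12g008530) and a pectate lyase gene (Solyc03g058910), whose products cut or trim pectin, were lower by -1.90 ± 0.22 and -1.62 ± 0.27.

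Among 20 gibberellin genes 3 were lower and none higher, with a median of -0.25. The gibberellin-regulated protein gene Solyc04g017720 was at 1.63, 1.78 and 1.13 CPM at ZT8 and at 10.8, 9.31 and 10 CPM at ZT2 (-2.73 ± 0.23, adjusted p = 1.43e-14), and Solyc02g089350 of the same family at 37.6, 39.7 and 40.9 CPM against 185, 166 and 141 CPM (-2.06 ± 0.17). Both were below every ZT2 library. BAS1 (Solyc12g006860), a cytochrome P450 that inactivates brassinosteroids, was at 0.626 to 1.36 CPM against 2.05 to 3.29 CPM (-1.41 ± 0.32, adjusted p = 0.000235), and it was the 1 called gene of 4 in its list. None of 14 ethylene genes was called by edgeR's quasi-likelihood test, while 4 passed the adjusted p alone (3 higher, 1 lower). In the jasmonate and defence list, 1 of 24 was called, JASMONATE ZIM-DOMAIN 1 (Solyc12g009220), a repressor of jasmonate signalling. Its ZT8 libraries were at 1.11, 3.33 and 8.73 CPM and its ZT2 libraries at 0.986, 1.1 and 0.722 CPM (2.23 ± 0.88, adjusted p = 0.0337), and without the third ZT8 library the difference was 1.26 and was no longer called. Leaving out the first, the second or the third ZT2 library also ended this call, at 2.27, 2.37 and 2.07.

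Few genes of cell division and none of the ribosome were called in 24WL. Of 15 histone and replication genes 4 were higher and none lower, with a median log2 fold change of 0.73. Histone H2A (Solyc09g074300), a core packaging protein made when DNA is copied, was at 39.4, 39.1 and 48.1 CPM at ZT8 and at 18.5, 18.7 and 18.4 CPM at ZT2 (1.18 ± 0.13, adjusted p = 8.74e-11). Cyclin A3_3 (Solyc12g088520) was at 4.09 to 5.68 CPM against 1.69 to 2.33 CPM (1.28 ± 0.25, adjusted p = 2.57e-05) and was the 1 gene called of 44 for the cell cycle and cytokinesis, where the median was 0.28 and 14 genes were higher and 4 lower at the adjusted p alone, against 24.1% and 20.8% of all tested genes. The 45 ribosomal genes had none called by edgeR's quasi-likelihood test and a median of 0.27, with 30 positive and 2 negative at the adjusted p alone. Those medians are small beside the fold required, and under 24FR they were -0.37 for the cell cycle and -0.34 for the ribosome. The time-by-light interaction was called for 27 of the 44 cell cycle genes, 36 of the 45 ribosomal genes and 9 of the 15 histone and replication genes. Over all tested genes it was called for 23%. In 26, 36 and 9 of these list members, respectively, the difference was lower under 24FR than under 24WL, as it was for 14.6% of all tested genes. The cell cycle genes summed to 1119 to 1161 CPM at ZT2 in 24WL and to 1968 to 2128 CPM at ZT2 in 24FR, so the light treatments were furthest apart there.

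Sugar transport genes moved in both directions. SUGAR TRANSPORTER PROTEIN 16 (Solyc03g093410), of a family that imports hexoses into cells, was at 3.68, 5.91 and 4.92 CPM at ZT8 and at 0, 0.0306 and 0.0578 CPM at ZT2. Since no ZT2 library had more than 2 counts, it was at least 52.9-fold higher at ZT8, taking 3 counts per library as the floor. SWEET genes are described as bidirectional sugar transporters. The members Solyc03g097610 and Solyc06g072620 were lower, at 0.125 to 0.155 CPM against 0.665 to 1.19 CPM and at 0.15 to 0.314 CPM against 0.49 to 0.694 CPM (-2.64 ± 0.61 and -1.52 ± 0.57). The second of these calls was lost without the second or the third ZT8 library (-1.32 and -1.42) and without the first or the third ZT2 library (-1.47 and -1.43). Of 20 starch and sugar genes, 4 were higher and 2 lower (30% called, against 8.04% of all tested and 16.2% of described genes). The higher genes include the invertase/pectin methylesterase inhibitor gene Solyc03g083770, which is also counted in the wall synthesis and lignin list. Among 22 heat-shock and chaperone genes, 2 were higher and 2 lower: a putative heat shock protein gene (Solyc07g055720) at 1.25 to 2.65 CPM against 0.123 to 0.231 CPM and a DnaJ gene (Solyc09g092260) at 8.78 to 16.5 CPM against 2.7 to 5.03 CPM, and in the other direction a heat shock transcription factor gene (Solyc07g040680) at 1.98 to 2.45 CPM against 12.6 to 15.1 CPM and an HSP70 gene (Solyc06g076020) at 11.6 to 20.2 CPM against 37.4 to 44.4 CPM. The HSP70 call was lost without the first ZT8 library (-1.18, adjusted p = 0.0562).

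**Figure D4:**
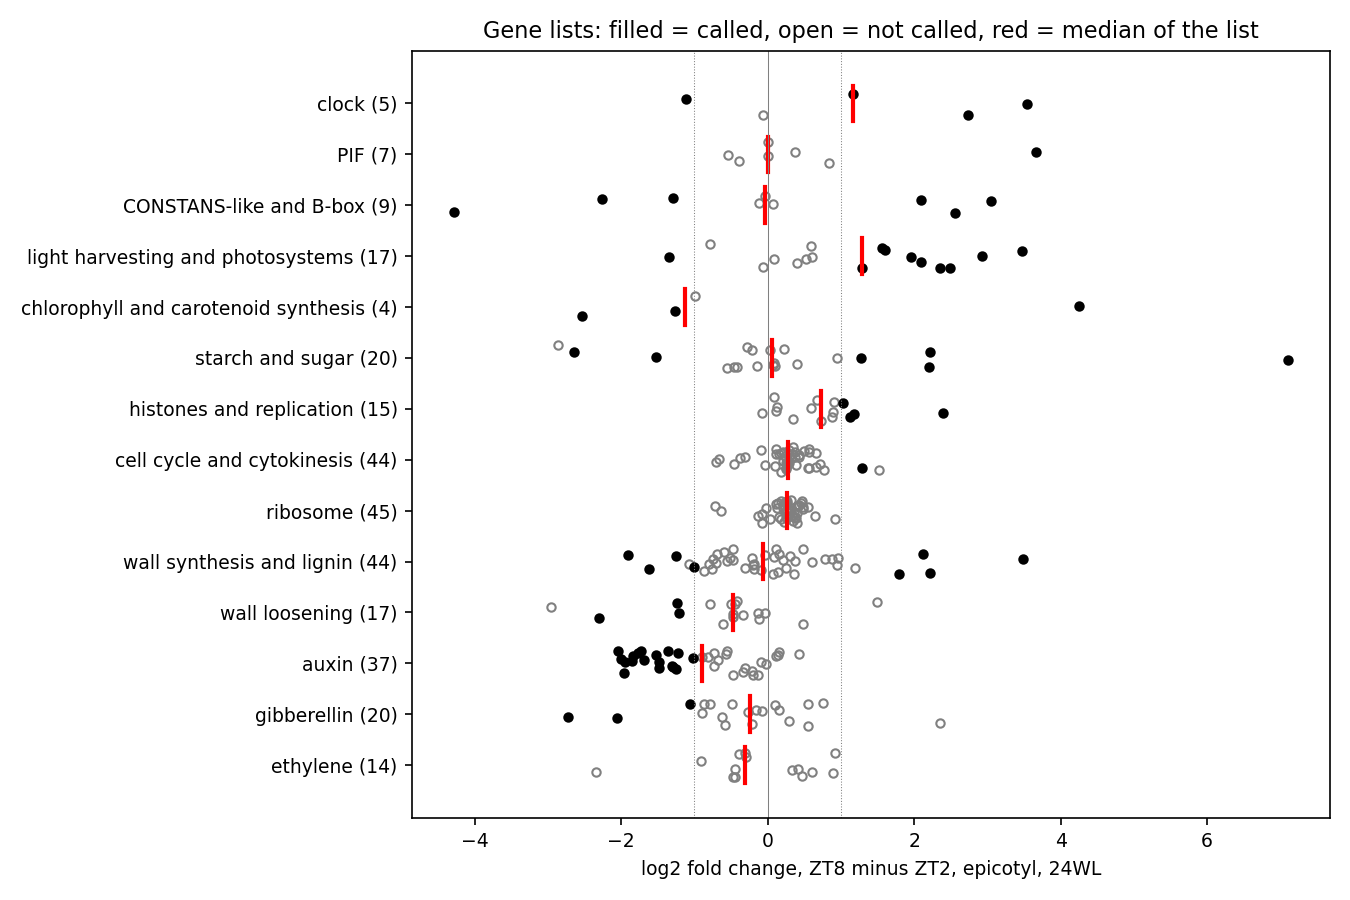
Log2 fold changes between ZT8 and ZT2 in the epicotyl under 24WL (x axis) for 14 gene lists, with the number tested in brackets, filled circles for called genes, open circles for the others and a red bar at the median of each list. The light-harvesting median lay at 1.29, the auxin median at -0.89 and the cell cycle and ribosome medians at 0.28 and 0.27, with the dotted lines at the fold required.

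The ZT5 libraries of the same light lay between or outside the ZT2 and ZT8 levels depending on the gene. Between ZT8 and ZT5 435 genes (2.49%) were called, 288 higher (1.65%) and 147 lower (0.841%) at ZT8, and between ZT5 and ZT2 548 (3.14%), 197 higher (1.13%) and 351 lower (2.01%) at ZT5. These comparisons share libraries with each other and with that of ZT8 and ZT2, so only levels are set side by side. GIGANTEA was at a mean of 16.9 ± 0.68 CPM at ZT5 (SD, n = 3), between 5.81 ± 0.551 at ZT2 and 67.8 ± 3.08 at ZT8. SlPIF1b was at 27.7 ± 4.11 CPM at ZT5, below its 41.8 ± 4.62 CPM at ZT8 (log2 fold change 0.59, adjusted p = 0.031), and the chlorophyll a-b binding gene Solyc07g063600 at 477 ± 20.6 CPM against 571 ± 31.3 CPM (0.26, adjusted p = 0.06). Adagio-like protein 1 was at 3.17 ± 0.696 CPM at ZT5 and 4.49 ± 0.624 CPM at ZT2 (-0.50, adjusted p = 0.365), and EARLY FLOWERING 4 was lower at ZT5 (0.891 ± 0.28 CPM) than at either other time. TPSI1 was at 0.146 ± 0.105 CPM at ZT5 and 0.396 ± 0.0339 CPM at ZT8 (1.38, adjusted p = 0.218), while Solyc09g082690 was at 269 ± 18.5 CPM, between ZT2 and ZT8. Under 24FR, the ZT5 level of the genes called in the same direction under both lights was placed on the log2 distance from ZT2 to ZT8. Its median position was 0.459 for the 407 higher genes and 0.450 for the 461 lower genes. The 24FR calls that helped pick these genes used the same ZT2 and ZT8 libraries as the ends of this distance. The position is therefore a description only. Far-red exposure also differed, at 3 h for ZT5, 6 h for ZT8 and 24 h for ZT2.

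Most of the differences were found again in the epicotyl under 24FR, where 1536 genes (8.79%) were called, 819 higher (4.69%) and 717 lower (4.1%). Of the 609 genes higher at ZT8 in 24WL, 407 (66.8%) were called higher in 24FR and 596 (97.9%) had the same sign. Of the 795 lower genes, 461 (58.0%) were called lower and 750 (94.3%) had the same sign, against 67.8% with the same sign among all tested genes. The 868 shared calls made up 61.8% of the 24WL and 56.5% of the 24FR calls, and 8 genes were called in opposite directions. Across genes, which are not independent, the Pearson correlation of the log2 fold changes in the 2 lights was 0.70 over all 17469. The test of the time-by-light interaction called 4016 genes (23%), with 1458 above 0 (8.35%) and 2558 below (14.6%), and 356 of the 1404 were among them, 146 higher and 210 lower in 24WL.

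**Figure D5:**
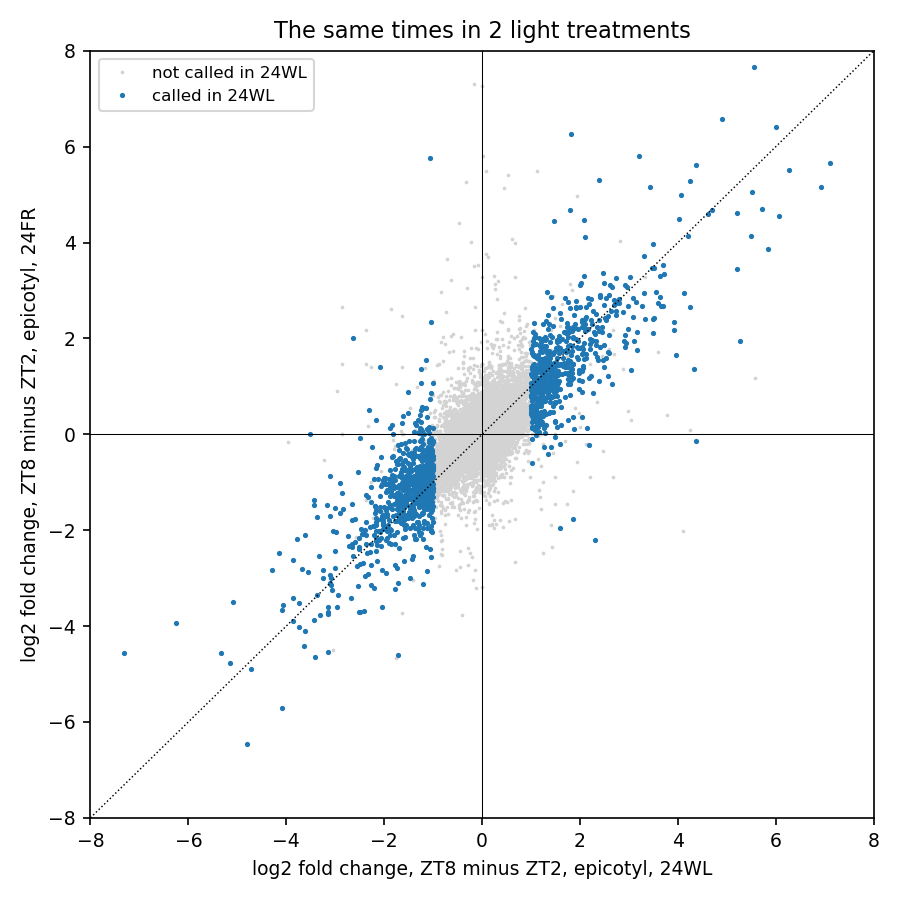
Log2 fold changes between ZT8 and ZT2 in the epicotyl under 24WL (x axis) and 24FR (y axis), with 1 point per tested gene, blue for the 1404 genes called in 24WL and a dotted line at equal values. Most blue points lay in the lower left and upper right quadrants, where 1346 of the 1404 had the same sign in both lights, and 2 genes lay beyond the plotted range.

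In 24FR the ZT8 plants had received 6 h and the ZT2 plants 24 h of the treatment, so length of far-red exposure, time of day and age cannot be told apart in the 24FR contrast or in the interaction. The size of the difference varied between the lights for several named genes. POR1 differed by 2.66 in 24FR against 4.25 in 24WL on the log2 scale (interaction -1.59 ± 0.29, adjusted p = 4.2e-05), with a higher ZT2 level in 24FR (23.8 to 26.7 CPM). Thiamine thiazole synthase differed by 5.62 against 4.38 (interaction 1.24 ± 0.23, adjusted p = 5.5e-05), with ZT2 levels of 62.7 to 68.4 CPM in 24FR. SlPIF4 passed the fold required in 24FR, at 114, 139 and 155 CPM at ZT8 against 54.7, 53.6 and 61.2 CPM at ZT2 (1.26, interaction 0.89 ± 0.16, adjusted p = 3.7e-05). The gibberellin-regulated gene Solyc02g089350 was at 220, 209 and 271 CPM at ZT8 and at 310, 305 and 358 CPM at ZT2 in 24FR, a difference of -0.48 against -2.06 (interaction 1.58 ± 0.24, adjusted p = 1.4e-06). Histone H2A differed by 0.21 in 24FR (interaction -0.98 ± 0.18, adjusted p = 6.6e-05). LNK2, Solyc09g082690 and Solyc07g063600 did not pass the interaction test, with values of -0.06 ± 0.08, -0.03 ± 0.21 and 0.20 ± 0.15.

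The epicotyl had fewer called genes than the other organs at the same times and light, and smaller differences: the median absolute log2 fold change over all tested genes was 0.243, against 0.282 in the hypocotyl, 0.364 in the first leaf and 0.439 in the cotyledons. Squared differences between replicates were 2.61 to 5.98 times sampling noise in the epicotyl groups. In the cotyledons they were 7.03 to 12.0 times at ZT8 and 3.97 to 5.02 times at ZT2. The part of this spread in the medians was not tested. Called genes numbered 2081 (11.9%) in the hypocotyl, 2879 (16.5%) in the first leaf and 3626 (20.8%) in the cotyledons. Genes higher at ZT8 were 5.51%, 8.74% and 11.9% of those tested in these organs, and genes lower at ZT8 were 6.41%, 7.74% and 8.84%. Of the 1404 epicotyl calls, 1031 (73.4%) were called the same way in the hypocotyl, 1082 (77.1%) in the first leaf and 1044 (74.4%) in the cotyledons, which were 49.5%, 37.6% and 28.8% of the calls in those organs. Opposite calls numbered 2, 6 and 14. In all 4 organs 395 genes were called higher and 428 lower. The interaction with organ was called for 2060 genes (11.8%) between epicotyl and hypocotyl, 5633 (32.2%) with the first leaf and 7698 (44.1%) with the cotyledons. The epicotyl value was above that of the other organ for 7.11%, 17.1% and 23.8% of tested genes and below it for 4.68%, 15.2% and 20.2%. Among the epicotyl calls it was called for 420, 621 and 746, and the epicotyl difference was the smaller in 265, 444 and 508 of these.

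GIGANTEA is an example of a smaller difference in the epicotyl. Its log2 fold change of 3.54 compares with 4.59 in the hypocotyl, 5.27 in the first leaf and 5.48 in the cotyledons, and each of these organs differed from the epicotyl in the interaction test (-1.05 ± 0.22, -1.72 ± 0.23 and -1.94 ± 0.23). LNK2 differed by -1.31, -1.17 and -1.18 in these organs against -1.12 in the epicotyl, and none of its interactions passed (interactions 0.18 ± 0.08, 0.05 ± 0.08 and 0.05 ± 0.08). SlPIF8a was lower at ZT8 in the hypocotyl, by -1.23 on the log2 scale, while the epicotyl difference was 0.00 (interaction 1.23 ± 0.16, adjusted p = 1.3e-07). Solyc09g082690 differed by -6.00 in the hypocotyl against -3.87 in the epicotyl (interaction 2.13 ± 0.22, adjusted p = 7.2e-10), and Solyc11g006300 by -6.37 against -3.62. The light-regulated protein gene Solyc09g092110 had a larger difference in the epicotyl, 4.02 against 2.84 in the hypocotyl, 2.10 in the first leaf and 2.33 in the cotyledons (interactions 1.18 ± 0.37, 1.93 ± 0.33 and 1.70 ± 0.34).

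By the interaction tests, the epicotyl difference was above that of each other organ for 448 of the 17469 tested genes. It was below each for 286. Of the 609 genes called higher, 26 were among the former, and of the 795 called lower, 20 were among the latter. Examples named after their values were seen were PRE5 (Solyc02g087860), a small helix-loop-helix factor of a family that promotes elongation in Arabidopsis, at 1.59 CPM at ZT8 and 6.43 CPM at ZT2 in the mean (log2 fold change -2.01 in the epicotyl, -0.64 in the hypocotyl), the auxin efflux carrier gene SlPIN3 (Solyc04g007690), at 5.88 and 20.9 CPM (-1.83 against -0.99), and ovate family protein 10 (Solyc05g055220), at 0.633 and 5.09 CPM (-2.99 against -0.32). In the higher direction the cyclin gene cyclinU2_1 (Solyc01g090800) was at 57.5 and 21.3 CPM (1.44 against 0.39). Histone H2A and the light-regulated protein gene also belonged to this group. All these genes were called within the epicotyl by the same test that chose the examples, so their differences are given as a description.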

How the data were processed

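Gene counts were obtained from the table that the authors deposited for the WT time course. Per the labels, the paper's methods and the submitters' processing notes, single-end stranded reads of 2 runs per library were aligned to the SL4.0 tomato genome with STAR 2.7.9a and assigned to genes with HTSeq 0.13.5 (intersection-strict, reverse strand), and the counts are not normalised. A second table the authors deposited holds CPM values over effective library sizes, a normalised signal without units of reads, used for alternatives only; CPM values in the text were computed from the counts and TMM-scaled library sizes. In the 6 libraries 9.33 to 10.9% of reads were in 5 entries that name no gene; they entered neither the library totals nor the tests.

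Among 34075 listed genes, the 17469 with CPM above 5 in at least 3 of 72 libraries were kept. A model with 1 mean per group was fitted to all 72 libraries with edgeR 4.0.16 (R 4.3.3, limma 3.58.1), TMM normalisation and the quasi-likelihood test, and p-values were adjusted by Benjamini-Hochberg over all tested genes. Calls required an adjusted p below 0.05 and an absolute log2 fold change above 1, or the adjusted p alone for interactions. Differences are ZT8 minus ZT2; SE is the log2 fold change over the root of F. The biological coefficient of variation was 0.117. The test was checked on simulated data: of 200 genes changed by 1.5 on the log2 scale between ZT8 and ZT2 in 24WL, 195 of 200 were recovered with 1 false call among 17469 genes, and of 200 changed by 1 in the time-by-organ interaction with the hypocotyl, 164 of 200 with 7 false calls among 17469. The changed genes of the simulation were drawn only from those above a minimum expected count. Every gene was given its mean over all 72 libraries. Recovery for genes near 0 in the epicotyl was therefore not tested. Alternatives were DESeq2 1.42.0, other filters, size factors, limma on log2(CPM + 1) and log2(CPM + 0.1), subsets of libraries, a replicate block and left-out libraries. Replicates are described as biological, pooled from 4 seedlings each; p-values measure the spread between these libraries.

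Genes named were all of the clock and PIF lists, up to 2 per direction of each other list, the 10 largest described differences per direction at 20 CPM or more, the 3 most abundant per direction, and the 2 largest per direction of each interaction. Of each set only part is given in full. Members and lists were chosen with earlier results of these data known. Descriptions came from the paper and its supplementary tables, for 3333 genes. Promoter and protein sequences are not used here. The authors' own fold changes and p-values, where present in supplementary tables, were not used.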

Additional observations from a re-analysis of the deposited data

Results flagged for a closer look

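The difference between ZT8 and ZT2 was itself different between conditions for many genes. The test of the time-by-light interaction called 4016 genes in the epicotyl, and the tests of time by organ called 2060 genes against the hypocotyl, 5633 against the first leaf and 7698 against the cotyledons. The genes below had the largest such differences, 2 in each direction, among described genes called in the epicotyl under 24WL.

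Between the lights, 4 genes of low level stood out. A transmembrane protein gene (Solyc02g086760) was at 0.628 to 1.03 CPM at ZT8 and 0.116 to 0.429 CPM at ZT2 in 24WL, and in 24FR at 0.331 to 0.831 and 1.54 to 2.46 CPM, so its direction turned (interaction -3.54 ± 0.58, adjusted p = 7.4e-06). NOD26-like intrinsic protein 2.1 (Solyc03g013340), of an aquaporin family, turned in the same way, at a mean of 0.412 and 0.0827 CPM in 24WL against 0.113 and 0.533 CPM in 24FR (interaction -4.50 ± 0.61). The SWEET gene Solyc03g097610 had an interaction of 4.65 ± 1.64 and the urea transporter gene DUR3 (Solyc08g075570) one of 4.44 ± 1.41. Both rest on 24FR libraries at ZT2 with almost no reads, where the SWEET gene was at 0, 0.0559 and 0 CPM and DUR3 at 0 in each, so these fitted sizes depend on the prior count and are no bound. The SWEET call was lost when the second ZT8 library of 24WL (4.56) or, in 24FR, the third ZT8 library (4.04) or the first or the third ZT2 library (4.16 and 4.20) was left out.

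Against the hypocotyl, ripening-related mRNA 1b (Solyc10g085230) differed by -1.71 in the epicotyl and -7.01 in the hypocotyl (interaction 5.30 ± 0.56, adjusted p = 7.7e-10). Its hypocotyl mean at ZT8 was 0.0724 CPM, below the 0.0852 to 0.102 CPM that 3 counts were worth there. The fitted hypocotyl and interaction sizes therefore depend on the prior count and are no bound. NCED2 (Solyc08g016720), which makes the precursor of abscisic acid, was at 0.457 to 0.979 CPM at ZT8 and 2.91 to 6.16 CPM at ZT2 in the epicotyl, and its interaction was -3.46 ± 0.59. ABA 8'-hydroxylase (Solyc04g078900), which breaks abscisic acid down, was lower at ZT8 in the epicotyl (-1.05) and higher in the hypocotyl (1.69), with an interaction of -2.74 ± 0.57 (adjusted p = 0.00059). Its epicotyl difference fell short of the fold required without the first or the third ZT8 library (-0.92 and -0.94) or the second ZT2 library (-0.97). A hydroxyproline-rich glycoprotein gene (Solyc02g078660) had an interaction of 6.14 ± 1.89. It was at 0, 0.125 and 0.412 CPM at ZT8 and at 0 in each ZT2 library, so the groups overlapped. Of its 21 counts at ZT8, 16 fell in 1 library, so no bound on the fold is given. Without the third ZT8 library its interaction was 4.73 and was no longer called.

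Against the first leaf, an uncharacterised plant protein gene (Solyc05g054750) differed by -1.05 in the epicotyl and 3.29 in the leaf (interaction -4.34 ± 0.58), and its epicotyl call was lost without the third ZT8 library (-0.87). Nudix hydrolase 8 (Solyc08g007240) differed by 4.25 against 8.88 (-4.63 ± 0.83), a DREB2d-like gene (Solyc06g033850) by 2.03 against -1.60 (3.63 ± 0.48) and the transporter gene NRT1/PTR FAMILY 6.4 (Solyc12g006050) by -1.66 against -5.11 (3.45 ± 0.27). Against the cotyledons, LBD37 (Solyc04g077990), which in Arabidopsis represses nitrate-responsive genes, differed by 1.22 against -2.46 (3.68 ± 0.50), and without the third ZT2 library its epicotyl difference was 0.95 and was no longer called. The pectin lyase-like gene Solyc05g005170 differed by -2.15 against -6.63 (4.48 ± 0.55) and a fatty acid desaturase gene (Solyc08g063090) by 1.44 against 7.53 (-6.08 ± 0.44). A glucan endo-1,3-beta-glucosidase 5 gene (Solyc10g078510) had an interaction of -7.52 ± 1.60, with epicotyl levels of 0.0571, 0.225 and 0.747 CPM at ZT8 and 0.0954, 0.123 and 0.0289 CPM at ZT2, and its epicotyl call was lost without the third ZT8 library (0.81) and without the first or the third ZT2 library (2.16 and 1.63). In the cotyledons its ZT2 mean was 0.0634 CPM, below the 0.166 to 0.198 CPM that 3 counts were worth there. The interaction size is therefore no bound.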

How the results depend on the processing

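Under the other tests, normalisations, filters and sets of libraries, the number of genes called between ZT8 and ZT2 in 24WL stayed within 1.5 times of 1404, from 981 (limma, log2(CPM + 1)) to 1838 (no filter, more genes tested). An absolute log2 fold change above 2 gave 316 genes (165 higher, 151 lower), and the adjusted p alone 7841 (4208 higher, 3633 lower). With 1 library left out, the totals were 1317 to 1460, with 555 to 647 higher and 762 to 813 lower. The totals of the other contrasts and interactions also stayed within 1.5 times; leaving out libraries gave 1469 to 1600 for 24FR, 1927 to 2282 for the hypocotyl, 2787 to 3002 for the first leaf, 3442 to 3793 for the cotyledons, 3161 to 4123 for time by light, and 1550 to 2180, 5060 to 5384 and 7088 to 7869 for time by organ. The share of 24WL calls found in 24FR was 55.5% without a filter.

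SlPIF8a, near 0, changed sign under DESeq2 (-0.0228), DESeq2's size factors in edgeR (-0.0228), a CPM filter of 1 (-0.00266), limma (-0.00202 and -0.00207), the epicotyl libraries alone (-0.0186), the 6 libraries alone (-0.0202) and the replicate block (-0.000306), and without the first ZT8 or the second ZT2 library (-0.079 and -0.0508, over a range from -0.079 to 0.0704 with 1 library left out). ELF4-LIKE 4 did so without the third ZT8 or the third ZT2 library (0.00547 and 0.0141, over a range from -0.178 to 0.0141). The DUR3 interaction turned to -0.21 on the log2(CPM + 1) scale. In none of these was the gene called with the new sign, and the cause was not tested. Of 79 named genes, 60 kept their direction and call under all 11 alternatives other than left-out libraries, and 67 under each of the 6 left-out libraries.

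Replicate numbers were shared between groups. Between the ZT8 and ZT2 epicotyl libraries in 24WL, deviations of the same number correlated at 0.175, 0.152 and 0.0487, and the third matched another number better. These libraries were not taken as pairs. Organs with the same number may come from the same seedlings. That pairing was not checked, and the time-by-organ tests treat organs as independent. A replicate block gave 1408 genes (611 higher, 797 lower). For time by organ it gave 2279 genes against the hypocotyl, 5861 against the first leaf and 7902 against the cotyledons. Genes of a few counts per library were limited by depth. The restriction to genes of the deposited CPM table and the auxin list without SAUR genes were chosen after seeing the data.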

Other observations

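Photoreceptor genes, named here after their values were seen, fell short of the fold required, although 2 of the 3 in the list passed the adjusted p. The gene of the red and far-red receptor phytochrome B1 (Solyc01g059870) was at a mean of 65.7 CPM at ZT8 and 120 CPM at ZT2 (log2 fold change -0.86, adjusted p = 6.63e-11). Phototropin 1 (Solyc11g072710), a blue-light receptor for phototropism, was at 186 CPM at ZT8 and 110 CPM at ZT2 (0.75, adjusted p = 6.8e-10). Phytochrome B2 (Solyc05g053410) was at 14.8 and 17.6 CPM (-0.25). Of the 7 nitrate and sulfate genes, the sulfate transporter was the only 1 called, and the list's median was -0.79.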
